A study of Mus musculus with 7 samples.

Results

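Enamel is built on a protein scaffold that ameloblasts, the enamel-forming type of epithelial cell in the tooth, secrete and later remove. The 5 genes described here encode that scaffold and its late additions. Ambn encodes ameloblastin and Enam encodes enamelin, matrix proteins of the secretory stage, Amtn encodes amelotin and Odam encodes odontogenic ameloblast-associated protein, both best known from maturing ameloblasts, and Amelx encodes amelogenin, the main protein of forming enamel. Odam, Amtn, Ambn and Enam lie on 1 stretch of mouse chromosome 5, and Amelx lies apart on chromosome X. In the RefSeq annotation of GRCm38.p6, on the plus strand, Odam spans 87885010 to 87894809, Amtn 88376108 to 88385916, Ambn 88455991 to 88468531 and Enam 88487975 to 88506049. Amelx spans 169176114 to 169187209 on the minus strand. Members were found by position: a peak belonged to the set if it touched the stretch spanned by Odam, Amtn, Ambn and Enam with 50 kb on each side (chromosome 5, 87835010 to 88556049, GRCm38, 721 kb), or Amelx with 50 kb on each side (chromosome X, 169126114 to 169237209, 111 kb). Of 415935 peaks on placed chromosomes in 7 lists, 38 met the rule. They merged into 14 of 130788 regions, all on chromosome 5.

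The assay was ATAC-seq, which finds accessible DNA by where a transposase can insert, applied to 7 mouse libraries of 5 groups. The groups were ectoderm peeled from the first pharyngeal arch at embryonic day 11.5 (E11.5, 2 replicates), Sox2-positive cells sorted from the labial cervical loop of the lower incisor at postnatal day 2 (P2, 2 replicates), and whole lower incisor, whole lower first molar and whole upper first molar at P2 (1 library each, so nothing that rests on one of them has a replicate check). The sorted cells came from a mouse line in which the promoter of Sox2 drives green fluorescent protein. The labels give no strain, sex or number of animals, and do not say whether the other groups carried the reporter or whether replicates came from separate animals. The cervical loop is the epithelial pocket that feeds the growing incisor, and its descendants become ameloblasts. In a whole tooth, fewer cells of a type and less accessible DNA per cell cannot be told apart.

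The lists held 39017 to 82461 peaks, the Sox2-positive lists being the shortest, and hold no read counts, so depth is unknown. Counts that list length can set are therefore also given for the 38000 peaks of each list with the largest −log10 p of the authors' caller, a cut that kept 46.1% of the list of ectoderm replicate 1 and 97.5% of that of Sox2-positive replicate 2. Where a peak ranked is given as the percentage of its own list with a smaller −log10 p. These ranks describe a peak within its list and are not compared as levels between libraries. Of 5 epithelial genes (Krt5, Krt14, Epcam, Cdh1 and Krt8), 5 and 4 had a gene-end peak (a summit within 1 kb of the start or end of the gene) in the ectoderm replicates, 5 and 5 in the sorted replicates, 4 in incisor, 5 in lower molar and 5 in upper molar. Of 5 dental mesenchyme genes (Prrx1, Twist1, Msx1, Col1a1 and Pdgfra) the numbers were 4 and 3, 5 and 4, 4, 4 and 4. At 38000 peaks per list the epithelial numbers were 4 and 4, 5 and 5, 3, 4 and 4, and the mesenchyme numbers 3 and 2, 4 and 4, 4, 3 and 4. Sox2 itself had a gene-end peak in all 7 libraries, and with 38000 peaks per list in the 4 ectoderm and sorted libraries only. By the mesenchyme list the sorted cells were not set apart from whole teeth, and ectoderm was close at 4 and 3 of 5. Such counts do not show which cells a library held. In each library 11671 to 13812 of all 21887 protein-coding genes had a gene-end peak. Of the odontoblast genes Dspp, Dmp1 and Phex, 2 of 3 had one in incisor and 0 in any other library, and with 38000 peaks per list 0 had one in any. Of 3 endothelial and 3 blood genes, Pecam1 and Ptprc had none in any library, Kdr, Spi1 and Cd68 had one in all 7, and Cdh5 had one in incisor and lower molar. At equal list length Cdh5 had none, Kdr had one in the ectoderm and sorted libraries only, Cd68 lost that of ectoderm replicate 1, and Spi1 kept all 7.

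The start sites of the 5 genes are shown because the 1 region of the locus with a peak in all 5 P2 libraries and in neither ectoderm library lay on one, that of Ambn. Each sequence is the 250 bases before the annotated start, 5′ to 3′ on the strand of the gene, from RefSeq (GRCm38.p6). Ambn is at chr5:88455741-88455990, Enam at chr5:88487725-88487974, Amtn at chr5:88375858-88376107 and Odam at chr5:87884760-87885009, all on the plus strand, and Amelx at chrX:169187210-169187459 on the minus strand. Capitals mark TGATTGG, the reverse complement of a CCAAT box, the element that the ubiquitous factor NF-Y binds.
Ambn: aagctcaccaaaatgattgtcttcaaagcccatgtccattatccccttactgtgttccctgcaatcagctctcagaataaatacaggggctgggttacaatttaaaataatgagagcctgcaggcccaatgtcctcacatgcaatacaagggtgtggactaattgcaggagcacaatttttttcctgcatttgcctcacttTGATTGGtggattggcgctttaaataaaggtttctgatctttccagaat
Enam: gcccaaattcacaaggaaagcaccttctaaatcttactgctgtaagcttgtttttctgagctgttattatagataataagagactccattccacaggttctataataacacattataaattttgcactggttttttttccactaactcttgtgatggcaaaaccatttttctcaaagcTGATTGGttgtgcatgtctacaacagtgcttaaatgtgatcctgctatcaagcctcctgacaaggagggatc
Amtn: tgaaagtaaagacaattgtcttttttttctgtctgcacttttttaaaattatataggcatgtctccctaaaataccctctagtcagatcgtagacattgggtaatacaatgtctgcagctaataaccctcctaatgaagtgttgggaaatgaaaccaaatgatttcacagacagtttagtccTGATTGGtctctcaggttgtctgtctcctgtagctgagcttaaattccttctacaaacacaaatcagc
Odam: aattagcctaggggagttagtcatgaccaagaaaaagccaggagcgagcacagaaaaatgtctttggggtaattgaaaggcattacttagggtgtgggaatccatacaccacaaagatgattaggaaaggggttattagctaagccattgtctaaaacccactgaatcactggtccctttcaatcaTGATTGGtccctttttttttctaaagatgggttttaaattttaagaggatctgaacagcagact
Amelx: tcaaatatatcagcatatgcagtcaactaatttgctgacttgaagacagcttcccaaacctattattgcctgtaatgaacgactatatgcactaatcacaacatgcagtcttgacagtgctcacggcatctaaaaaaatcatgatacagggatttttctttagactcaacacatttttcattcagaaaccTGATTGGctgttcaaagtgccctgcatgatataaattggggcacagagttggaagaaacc

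All 5 sequences held TGATTGG in the same orientation. Its first base lay 49 bp before the start in Ambn, 60 bp in Amelx, 64 bp in Odam, 68 bp in Amtn and 72 bp in Enam. On either strand the 7 letters occurred in 7.82% of 32851 promoters of 300 bp in the same table (250 bp before to 50 bp after a start), and in this orientation with the first base 49 to 72 bp before the start in 0.801%. The element was searched after the sequences had been read, and its window is that of the 5 genes, so the shares are a description. A match of letters is not a bound site.

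The other motifs searched on both strands were scattered. TATAAA, the TATA box, began 31 bp before the start of Amelx and 137 bp before that of Enam, and occurred in 13.6% of all promoters. TAATTG, a core that MSX and DLX homeodomain factors bind, was found in Ambn, 91 bp before the start, and in Odam (8.0% of promoters). CTTTGAT, a TCF and LEF core, was found in Ambn alone of the 5, 52 bp before the start and sharing 4 letters with the TGATTGG there (3.73% of promoters). Odam held TGTGGT, a RUNX core (16.8%), and TGANTCA, an AP-1 site (7.81%). TAATTA, a second homeodomain core (5.29%), GGGCGG, for SP factors (35.7%), TTGCNNAA, for C/EBP (10.8%), and TGTTTAC, for FOXO (3.65%), were in none of the 5. Over the 300 bp the 5 promoters were poor in G and C, from 36.7% in Enam to 41.7% in Ambn, against a median of 52.7% over all promoters. They held 0 CpG dinucleotides in Enam, 1 in Ambn and Odam and 3 in Amtn and Amelx, against a median of 7. Of the 10310 promoters with at most 3 CpG, 10.05% touched a peak in at least 1 library, against 52.1% of all promoters. That 2 of these 5 did so is read against the former share.

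Ambn was open at its start in all 5 P2 libraries and in neither ectoderm library. The region covered chromosome 5, 88455388 to 88456108, and 5.85% of all regions of the genome had a peak in both Sox2-positive and neither ectoderm library (12.0% with 38000 peaks per list). In Sox2-positive replicate 1 the peak ran from 293 to 37 bp before the start, with a −log10 p of 4.95 that ranked above 70.0% of its list. In replicate 2 it ran from 512 to 27 bp before the start, with a −log10 p of 3.54 that ranked above 20.8% of its list. The replicates thus agreed on the place and differed in rank, and the peak of replicate 2 was a weak one in its list.

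In whole incisor the Ambn peak spanned 721 bp, from 603 bp before to 117 bp after the start, with a −log10 p of 6.35 that ranked above 85.3% of the list. In lower molar it was 545 bp wide (−log10 p 5.65, rank 75.3%) and in upper molar 588 bp wide (5.69, rank 75.6%). The 5 summits lay 129, 152, 151, 151 and 153 bp before the start, from Sox2-positive replicate 1 to upper molar, that is, within 24 bp of each other. The peaks of the sorted cells stopped before the start site, and those of the whole teeth crossed it. Depth is unknown, so these extents describe the called peaks and do not show a different shape of the open site. In each Sox2-positive library the peak covered less of the merged region, 35.6% and 67.4%, than in any whole tooth (75.6% to 100%). The merged region had the bounds of the incisor peak, the widest, so the 100% of incisor is set by construction. TGATTGG lay under the peak in all 5 P2 libraries.

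All 5 Ambn peaks were among the 38000 of their lists, so the pattern was the same at equal list length. That cut kept 89.3% and 97.5% of the sorted lists and can add no ectoderm peak, so it checks little between these groups. With 50% of each list the peak of Sox2-positive replicate 2 was lost. Of all regions, 4.56% had a peak in all 5 P2 and neither ectoderm library (6.25% with 38000 peaks per list). Among promoters of 300 bp this pattern was rare, at 0.444% of 32851 (0.563% with 38000 peaks per list). Among protein-coding genes, 0.507% had a gene-end peak in all 5 P2 and neither ectoderm library, 111 of 21887, and 0.667% did with 38000 peaks per list. Of the 5 dental mesenchyme genes, 5 and 4 had a gene-end peak in the sorted replicates, where 11944 and 11671 of 21887 protein-coding genes did. Pdgfra had the pattern of Ambn, and Col1a1 had it but for a peak in ectoderm replicate 1. Twist1 and Msx1 had a gene-end peak in all 7 libraries, and Prrx1 in both ectoderm libraries and sorted replicate 1 only. The part of mesenchymal cells in the Ambn peak was not tested.

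**Figure D1:**
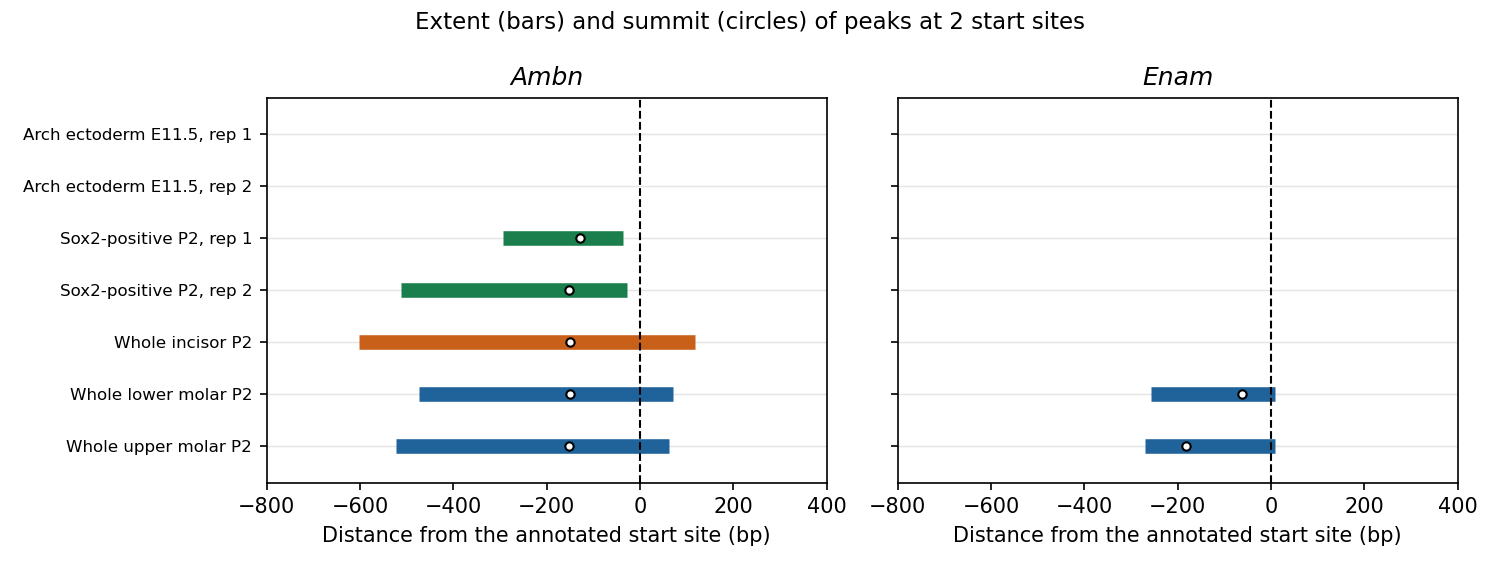
Peaks at the start sites of Ambn (left) and Enam (right) by library, with distance from the annotated start in bp on the x axis, bars for the extent of each peak and circles for its summit. At Ambn all 5 P2 libraries had a peak with a summit 129 to 153 bp before the start, and at Enam only the 2 molars had one.

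Enam was open at its start in the molars only. The region, chromosome 5, 88487704 to 88487984, had a peak of 267 bp in lower molar (−log10 p 3.56, rank 14.4%) and of 280 bp in upper molar (3.93, rank 29.6%), with summits 62 and 183 bp before the start. Both ended within 9 bp after the start. Neither was among the 38000 peaks of its list, so at equal list length Enam had no gene-end peak in any library. A peak in both molars and no other library was found at 6.26% of all regions and at 0.332% of promoters. Incisor, which had a peak at the Ambn start, had none at the Enam start.

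A second region inside Enam was open in ectoderm in place of teeth. It lay at chromosome 5, 88499767 to 88500062, 11.9 kb downstream of the start, and had a peak in both ectoderm libraries and in no P2 library. Its −log10 p was 5.49 in ectoderm replicate 1 (rank 67.0%) and 4.87 in replicate 2 (rank 57.2%), and both peaks were among the 38000. Of all regions 11.8% had a peak in both ectoderm libraries only. The tables used here give gene bounds and start sites without exons, so whether this region is exonic or intronic was not determined.

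Between Ambn and Enam, which are 19.4 kb apart, lay regions of whole teeth only, none of them found in all 3. The region 13.3 kb before the start of Enam had a peak in incisor (−log10 p 4.85, rank 63.6%) and a weak one in lower molar (3.56, rank 14.4%). The region 7.19 kb before the start of Enam had a peak in upper molar alone (4.32, rank 44.7%). Lower and upper molar thus differed at both places in the full lists, with 1 library each. At equal list length the lower molar peak 13.3 kb before the start of Enam was lost, and the incisor peak there was kept. The upper molar peak 7.19 kb before the start of Enam was also kept, so the molars then differed at that region only.

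The region 28.9 kb before the start of Ambn (chromosome 5, 88426662 to 88427301) was open in both ectoderm libraries and all 3 whole teeth and in neither Sox2-positive library, a pattern of 1.69% of all regions. Its −log10 p was 3.92 and 4.26 in ectoderm (ranks 25.2% and 39.6%), 4.73 in incisor (60.8%), 5.33 in lower molar (70.2%) and 6.28 in upper molar (82.9%). With 38000 peaks per list the peak of ectoderm replicate 1 was no longer counted, and the other 4 were. Within upper molar this distal region ranked above the Ambn start, and within incisor and lower molar it ranked below.

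Amtn had no peak in its body or within 1 kb of an end in any library. The nearest was a weak peak of incisor 2.48 kb before the start (−log10 p 3.65, rank 21.3%), outside the 38000. Downstream of the gene, the region 19.4 kb after its start (chromosome 5, 88394973 to 88395629) had a peak in ectoderm replicate 1 (4.15, rank 34.1%), incisor (3.72, 24.8%), lower molar (4.57, 53.6%) and upper molar (4.32, 44.7%). It had none in ectoderm replicate 2 or in the sorted cells, and at equal list length the molars alone kept it. A region 25.1 kb after the start had a peak in incisor alone (3.85, rank 31.3%).

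Odam was open in the molars only, inside the gene and not at its start. The region 3.77 kb downstream of the start (chromosome 5, 87888597 to 87889464) had a peak of 856 bp in lower molar (−log10 p 5.92) and of 868 bp in upper molar (5.85). These ranked above 79.0% and 77.8% of their lists and stayed among the 38000, and each ranked above the Ambn start in the same list. A second region 11.05 kb before the start had weak peaks in both molars (3.60 and 3.59, ranks 16.2% and 13.7%), outside the 38000. The ectoderm, Sox2-positive and incisor libraries had no peak within 50 kb of Odam. Of the 14 regions of the set, 4 had a peak in both molars and no other library, against 6.26% of all regions. With 38000 peaks per list the count was 2 of 9, against 3652 of 76927 regions of the genome.

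**Figure D2:**
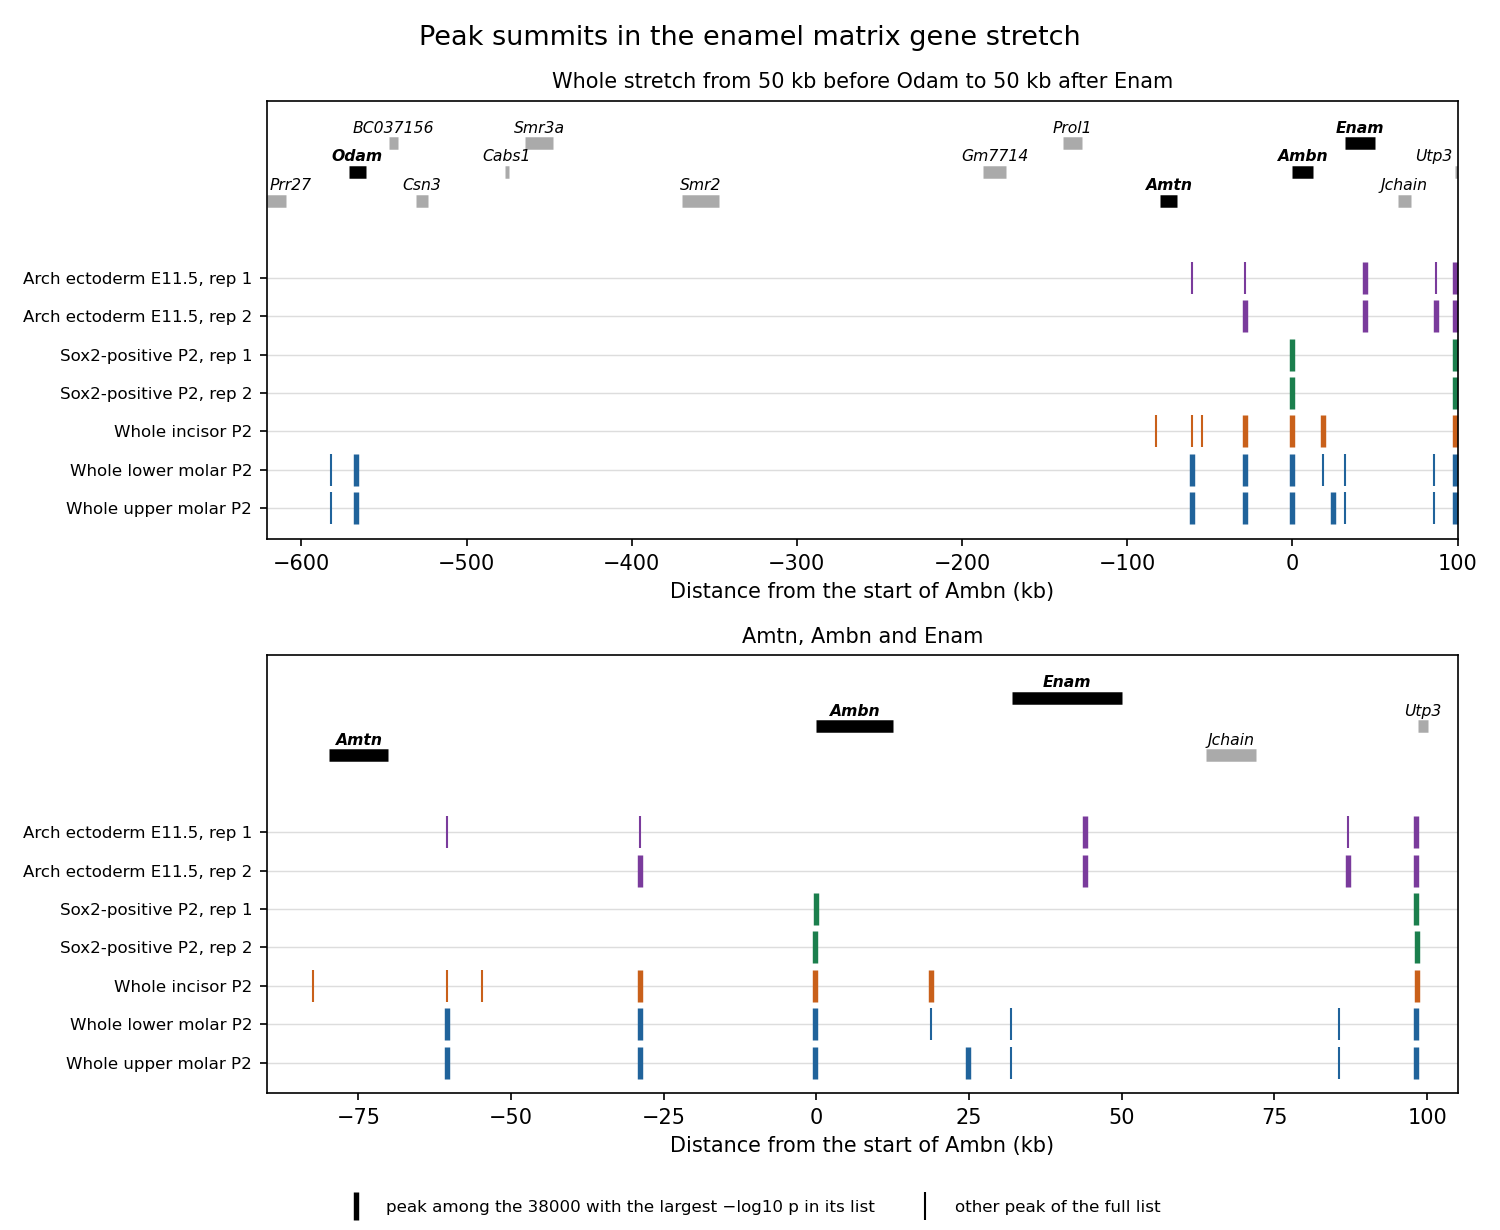
Peak summits (ticks) of the 7 libraries by distance from the start of Ambn in kb, over the whole stretch (top) and around Amtn, Ambn and Enam (bottom), with thick ticks for peaks among the 38000 with the largest −log10 p, black bars for the 4 members and grey bars for other protein-coding genes. The molars alone had peaks at Odam, the sorted cells had 1 at the Ambn start and 1 at Utp3, and a stretch of 484 kb held no peak in any library.

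Over the chromosome 5 stretch the ectoderm replicates had 5 and 4 peaks, the sorted replicates 2 and 2, incisor 7, lower molar 9 and upper molar 9. With 38000 peaks per list these became 2 and 4, 2 and 2, 4, 5 and 6. A peak of each library lay over the start of Utp3, a gene of ribosomal RNA processing 48.4 kb beyond the end of Enam. That region was the only one of the 14 found in all 7 libraries, against 14.3% of all regions, and ranked above 66.5% to 86.2% of each list. Apart from Utp3, the sorted cells therefore had a single peak each, that of the Ambn start. Of the other regions 2 more were nearer to the start of Utp3 than to that of a member, one with a peak in the molars only and the other in both ectoderm libraries only.

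Across the stretch 1 of 14 regions had a peak in both Sox2-positive and neither ectoderm library, and 3 had the reverse, where 17.9% of all regions do (15.6% with 38000 peaks per list, when 1 of 9 was left here). A peak in whole teeth and in no sorted or ectoderm library was found at 8 of 14 regions, against 23.1% of all regions. With 38000 peaks per list the count was 4 of 9, against 15.7% of all regions.

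**Figure D3:**
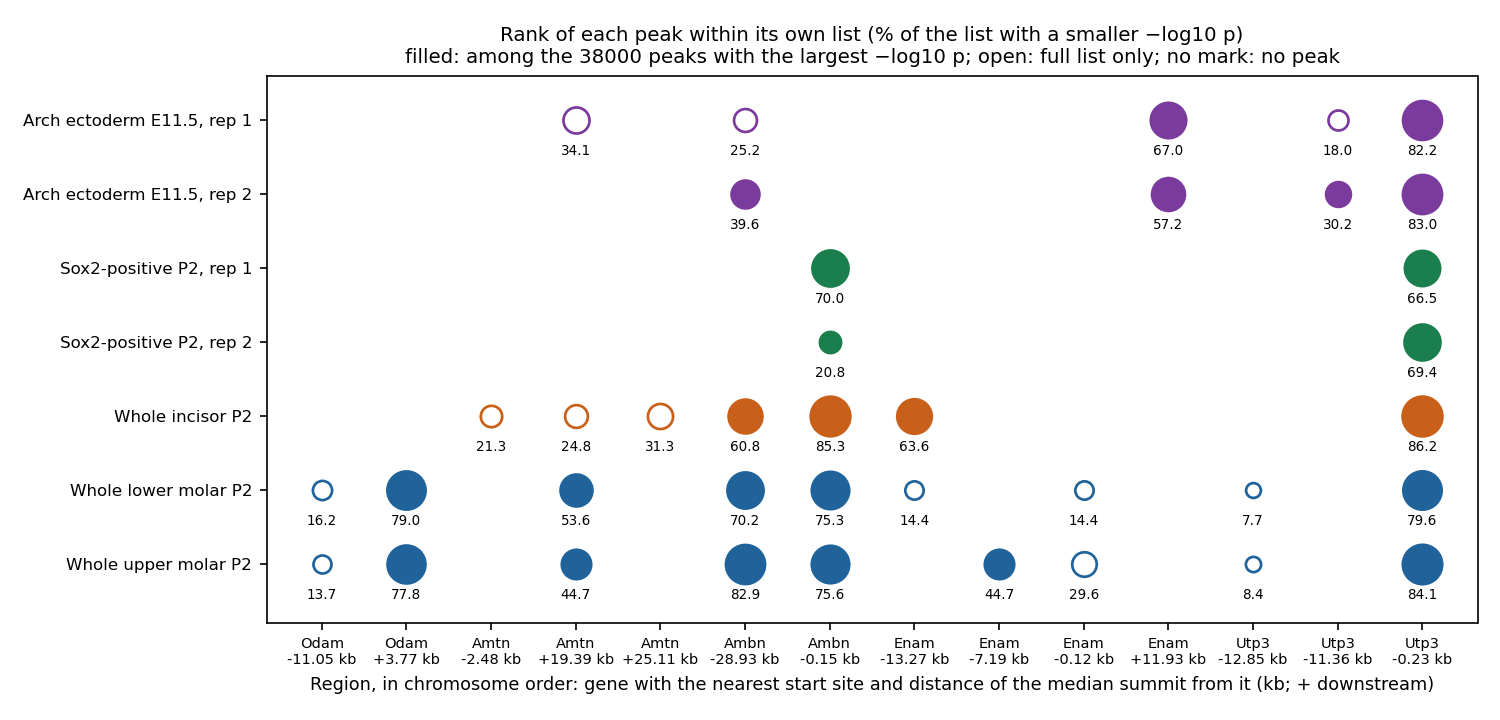
The 14 regions in chromosome order (x axis, named by the nearest start site and the distance of the median summit from it in kb) by library (y axis), with circle size and number for the percentage of the list with a smaller −log10 p, filled circles for peaks among the 38000 and open circles for the others. The Utp3 start was filled in all 7 libraries and the Ambn start in the 5 P2 libraries, while most other circles were in whole teeth.

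Most of the long interval between Odam and Amtn, 481 kb, held no peak in any library, the exception being the incisor peak just before the Amtn start. The peak-free stretch began inside Odam and ran from 87889465 to 88373422 (484 kb) and held 7 other protein-coding genes, among them Csn3, which encodes kappa-casein, and the salivary genes Smr2, Smr3a and Prol1. Of 130767 gaps between neighbouring regions of the genome, 280 were as long (0.214%), and they made up 13.7% of the summed length of all gaps. The density of the whole window was 1.94 regions per 100 kb, against 4.93 over all placed chromosomes (1.248 against 2.90 with 38000 peaks per list).

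The dentin and bone gene cluster further along chromosome 5 (Dspp, Dmp1, Ibsp, Mepe and Spp1, with 50 kb on each side) encodes related phosphoproteins and was taken by the same rule. It held 44 regions in 370 kb, 11.9 per 100 kb (28 regions, 7.56 per 100 kb, with 38000 peaks per list). There the ectoderm replicates had 7 and 3 peaks, the sorted replicates 5 and 17, incisor 35, lower molar 22 and upper molar 19. With 38000 peaks per list these became 2 and 3, 4 and 17, 20, 6 and 5, so that both molars then stood below sorted replicate 2. The enamel stretch had more peaks in each molar (9 and 9) than in incisor (7), and the dentin stretch the reverse, but these are single libraries and the difference was not tested. The sorted replicates, with the same number of peaks at the enamel genes, had 5 and 17 at the dentin genes. What this has to do with the low rank of the Ambn peak within the list of replicate 2 was not tested.

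Amelx had no peak in its body or within 50 kb in any of the 7 libraries, and none at equal list length. Of protein-coding genes 11.4% had no region within 50 kb, and of the 966 on chromosome X 27.2% had none, so a gene without a peak is common on this chromosome. Chromosome X carried between 1.47% and 1.99% of the peaks of a library. Of all promoters of 300 bp 47.9% touched no peak in any library, among them those of Amelx, Amtn and Odam.

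Amelx lies inside the larger gene Arhgap6 and runs on the opposite strand. The stretch without a peak in any library was 147 kb long (169112915 to 169259494), and 1.53% of gaps of the genome and 10.9% of those on chromosome X were as long. The nearest peak on the side of the Amelx start was in the 3 whole-tooth libraries, at 169259495 to 169259891, 72.5 kb before the start and inside Arhgap6. Neither ectoderm nor sorted cells had it, and at equal list length only lower molar kept it. On the other side the nearest was a peak of ectoderm replicate 1 over an Arhgap6 start, 74.4 kb from that of Amelx. That peak ranked above 34.1% of its list, was found in no other library and was lost at equal list length. An Arhgap6 start (region 169036252 to 169037281) and the start of Hccs, a haem-attaching enzyme of mitochondria, had a peak in all 7 full lists, 151 and 133 kb from the start of Amelx.

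**Figure D4:**
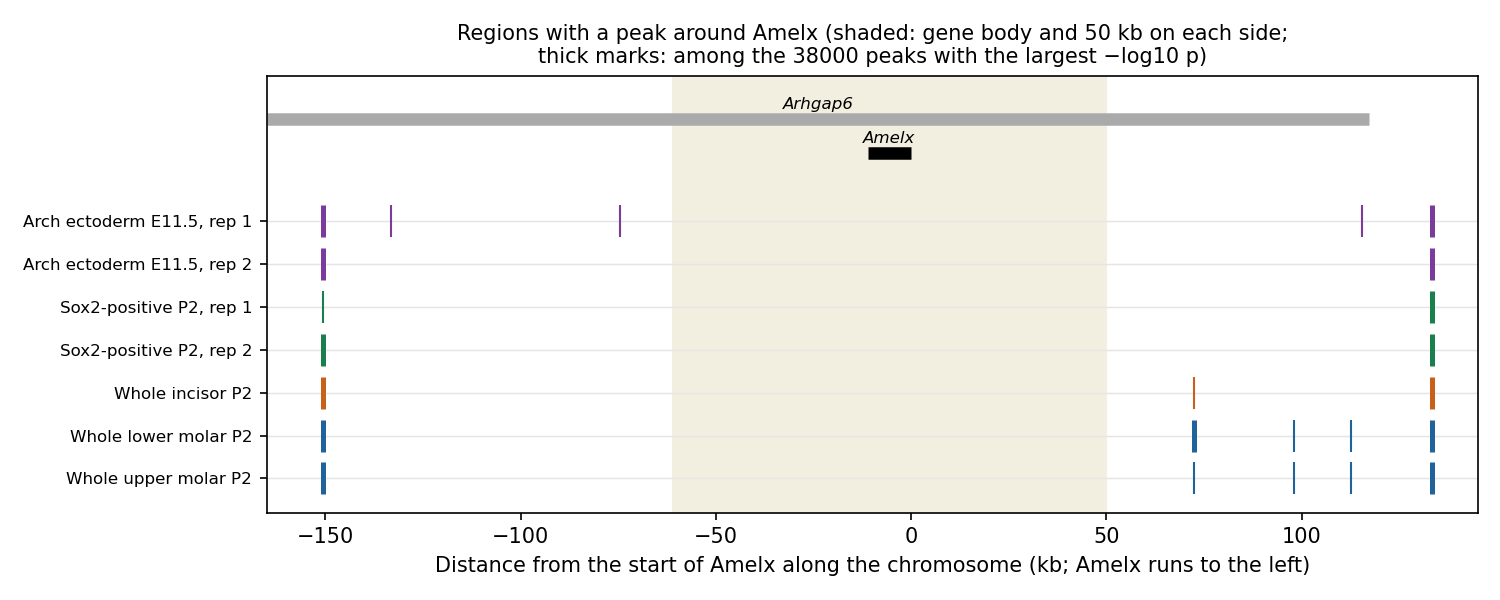
Regions with a peak (ticks) by library and by distance from the start of Amelx along the chromosome in kb, with thick ticks for peaks among the 38000, bars for Amelx and Arhgap6 and shading for the gene body and 50 kb on each side. The shaded part held no tick in any of the 7 libraries, and the nearest ticks of whole teeth stood 72.5 kb away.

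Counted over the merged regions of all libraries within 50 kb, the members ordered as Amelx (0 regions), Odam (2), Amtn (4), Ambn (6) and Enam (8), with regions shared between Amtn, Ambn and Enam. The median over 21887 protein-coding genes was 10 (2 on chromosome X). All 5 stood below it, and 38.7% of genes had fewer regions than Enam.

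**Figure D5:**
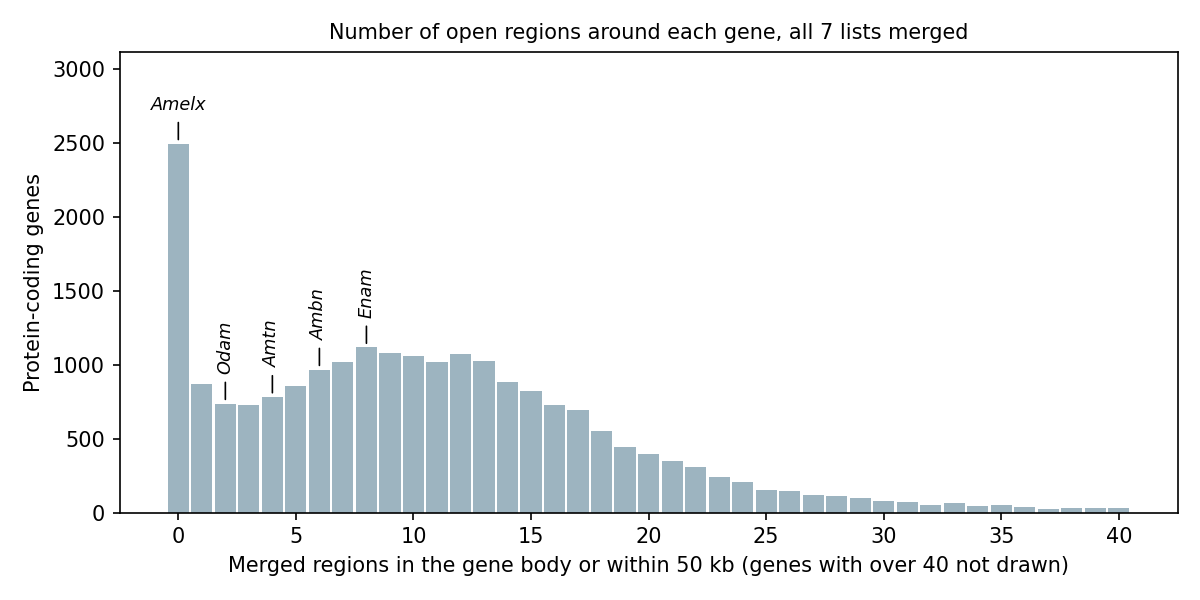
Number of protein-coding genes (y axis) by the number of merged regions in the gene body or within 50 kb (x axis, up to 40). Amelx stood at 0 with 2497 genes, and Odam, Amtn, Ambn and Enam stood at 2, 4, 6 and 8, below the median of 10.

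Other genes of enamel formation were counted in the same way. Of 16 such genes, proteases, ion transporters, adhesion proteins and others, 0 had a gene-end peak in all 5 P2 and neither ectoderm library, a count near the 0.507% of all genes. Mmp20, which encodes enamelysin, the protease that cuts amelogenin during secretion, had a gene-end peak in the 3 whole teeth only, as 0.274% of all genes did, and with 38000 peaks per list in incisor and lower molar. Both ectoderm and neither Sox2-positive library had one at 3 of the 16, among them Col17a1 and Wdr72, against 6.02% of all genes (4 of 16 against 3.39% with 38000 peaks per list). Cnnm4, Slc13a5 and Lama3 had one in all 7 libraries, as 48.8% of all genes did, and Lamb3, Itgb6 and Odaph in none, as 32.9% did. By library 9 and 9 of the 16 had one in the ectoderm replicates, 7 and 4 in the sorted replicates, 9 in incisor, 11 in lower molar and 10 in upper molar. Of all 21887 protein-coding genes, 13812 and 13138 had one in the ectoderm replicates and 11944 and 11671 in the sorted replicates. The numbers for all genes were 12471 in incisor, 12801 in lower molar and 12762 in upper molar. At equal list length these became 9 and 8, 5 and 4, 5, 5 and 3, so that ectoderm then had the most.

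Of 12 transcription factor genes known from ameloblasts, 3 had the pattern of Ambn at a gene end: Sp6, which encodes epiprofin, Runx1 and Runx2. Of all genes 0.507% had it. With 38000 peaks per list 1 of 12 did (Runx2), against 0.667% of all genes. The pattern was not confined to these factors. Of the 5 dental mesenchyme genes 1 had it in the full lists (Pdgfra) and 1 with 38000 peaks per list (Twist1). Of the 5 epithelial genes 0 had it in the full lists and 1 with 38000 peaks per list (Krt14). Another 7 of the 12 factors, among them Msx2 and Dlx3, had a gene-end peak in all 7 libraries, as 48.8% of all genes did. Trps1 had one in both ectoderm libraries, incisor and lower molar, and with 38000 peaks per list in the ectoderm libraries only.

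Likeness to Ambn was measured over the 7 libraries, as the Euclidean distance between ranks (in % of the list) of the best gene-end peak, with 0 where there was none. The nearest genes were F7 and F10, neighbours that share their gene-end peak (distance 14.98), then Cstdc1 (20.8), Plekha1 (22.7) and Aox4 (31.7). F10 ranked at 70.0% and 35.1% in the sorted cells, 84.6% in incisor, 75.6% in lower molar and 71.1% in upper molar. For Enam, with peaks in 2 libraries, Serpina16 (2.84), Dcstamp (4.19), Arr3 (5.54), Tcaf3 (6.66) and H2-Ob (7.32) were nearest.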

How the data were processed

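ATAC-seq peak lists, 1 per library, were deposited by the authors for 7 libraries. FastQC, Trimmomatic, Bowtie2, deepTools and Genrich and the build mm10 are named in the submitters' processing notes. Versions, options, read filters and any transposase shift are not given in the sources used here. The deposited signal of a peak is at least 200 in every line, the deposited −log10 p is that of the caller, and the deposited score and an empty q-value field were not used. No normalization between libraries is stated, so these values serve only to rank peaks within a list.

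Peaks on chromosomes 1 to 19, X and Y were kept, and those sharing at least 1 bp were merged over the 7 lists with Python 3.11.15 and pandas 2.3.3. The merging was checked on simulated lists. A library had a region if any of its peaks touched it. Ties at the 38000th peak were broken by signal, then position. Genes (21887 protein-coding) and start sites (32851, several for some genes) came from RefSeq GRCm38.p6, the same build as mm10. The members and lists were chosen with earlier results of these data known. Genes were named if they were members, lay in a window, belonged to a list or were among the 5 nearest in pattern, and a few list members and a motif are not reported here. No test was made: regions and genes are not replicates, and the lists hold no counts. Alternatives changed list length, overlap, peak extent, window and gene-end distance, or left out a replicate.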

Additional observations from a re-analysis of the deposited data

How the results depend on the processing

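Amelx had 0 regions under all alternatives except a window of 100 kb, which gave 3. The region at the Ambn start was the 1 region with a peak in both Sox2-positive and neither ectoderm library, and the 1 in all 5 P2 libraries without ectoderm, except in 2 settings, each of which gave 0 for both counts. These were the 50% of each list with the largest −log10 p, which dropped the peak of Sox2-positive replicate 2, and a demand that 50% of a region be covered, which dropped that of replicate 1. The 14 regions of the stretch became 9 and 8 with 38000 peaks by −log10 p and by signal, 7 with 50% of each list and 23 with a window of 100 kb. The 8 regions of whole teeth only became 4 in each of these shorter lists. The 3 regions of ectoderm without sorted cells became 1, 0 and 1 in those lists and 5 with 100 kb. Members with a gene-end peak fell from 2 to 1 in the same lists, Ambn being the one left. Leaving out a replicate moved no count by over 1.5 times. Shorter lists hold fewer weak peaks by construction. Depth is unknown, so a missing peak is not shown to be closed chromatin. No paired analysis was possible because no test was made and the lists hold no counts.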

Other observations

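The CCAAT box found before the 5 enamel gene starts was also looked up, after it had been seen there, in the promoters of 300 bp of nearby and related genes. Of the 11 other protein-coding genes in the 2 windows, 9 had a promoter in the table, and 0 of these held TGATTGG on either strand, which is close to the 7.82% of all promoters that do. Of the dentin and bone genes 4 had a promoter in the table (Dmp1, Ibsp, Mepe and Spp1), and all 4 held it at 1 start or more. In Ibsp, which encodes bone sialoprotein, it lay in the same orientation and stretch before the start as in the enamel genes. In the full lists Ibsp alone of these 5 dentin and bone genes had a summit within 1 kb of an end in each P2 library. It had none in ectoderm, a pattern of 0.507% of all genes. Whether this has to do with the box was not tested. No test was made of these counts, which were chosen after the sequences were seen.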
